A study of Mus musculus with 550 samples.

Results

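The genes described here are 6 digestive enzyme genes of the pancreatic acinar cell, Prss2, Cpa1, Pnlip, Cel, Ctrb1 and Cela1, read in spleen. Each gene was taken from the probe set annotated to it alone with the highest mean in spleen. Under that rule 5 of the 6 genes were measured, among 17097 genes in all, and Pnlip had no such probe set here. Spleen arrays were then divided at a Prss2 level of 6 log2 at each time, which placed 17 of 72 spleen arrays above and 55 below. The arrays were chosen by their Prss2 level, and each probe set was selected on its mean in spleen, so the levels of all genes on the 2 sides of this division are described without a test.

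The study gave C57BL/6 mice a single dose and profiled 7 organs on Affymetrix arrays, 550 in all, with 1 array per animal and organ. Spleen had 34 arrays at 6 h and 38 at 12 h. The groups were vehicle (hydroxypropyl methylcellulose), DMF (dimethyl fumarate) at 100 or 179.2 mg/kg, mixed calcium, magnesium and zinc salts of MEF (monoethyl fumarate) at 79.2 mg/kg, and DMF at 100 mg/kg together with the MEF salts. Naive mice were present at 12 h only. At 6 h there were 8 vehicle, 7 DMF 100, 7 DMF 179.2, 8 MEF and 4 combination arrays. At 12 h there were 7 vehicle, 8 DMF 100, 8 DMF 179.2, 8 MEF, 4 combination and 3 naive arrays. For the combination the array titles name both agents while the source names give the DMF dose alone, and the titles were followed. The labels give no age and no sex. Arrays are named below by treatment and animal number.

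Acinar cells fill most of the exocrine pancreas and make digestive enzymes, which they store as inactive precursors in zymogen granules and release into the gut. Prss2 encodes a trypsinogen, Ctrb1 a chymotrypsinogen and Cela1 an elastase, all serine proteases. Cpa1 encodes carboxypeptidase A1, which trims peptides from the carboxyl end, Cel a bile salt-activated carboxyl ester lipase and Pnlip pancreatic lipase. Acinar enzyme genes share control by the PTF1 complex, whose binding site joins an E box to a TTTCCC box. The tail of the pancreas lies against the hilum of the spleen.

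The 250 bases before the annotated start of each measured gene are shown as background. Whether these sequences bear on the levels in the spleen arrays was not tested. They are read 5′ to 3′ on the gene's own strand, from RefSeq on GRCm38.p6. The windows are chr6:41521526-41521775 (plus strand) for Prss2, chr6:30638968-30639217 (plus) for Cpa1, chr2:28563404-28563653 (minus) for Cel, chr8:111691011-111691260 (minus) for Ctrb1 and chr15:100687921-100688170 (minus) for Cela1. Capitals mark CACCTG (a form of the E box), TTTCCC and TATAAA, each on either strand, with no overlap between motifs.
Prss2: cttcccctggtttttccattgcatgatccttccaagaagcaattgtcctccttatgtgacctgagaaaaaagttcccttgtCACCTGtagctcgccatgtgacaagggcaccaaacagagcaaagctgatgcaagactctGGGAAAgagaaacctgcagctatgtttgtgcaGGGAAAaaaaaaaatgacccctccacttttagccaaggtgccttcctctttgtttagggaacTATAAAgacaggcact
Cpa1: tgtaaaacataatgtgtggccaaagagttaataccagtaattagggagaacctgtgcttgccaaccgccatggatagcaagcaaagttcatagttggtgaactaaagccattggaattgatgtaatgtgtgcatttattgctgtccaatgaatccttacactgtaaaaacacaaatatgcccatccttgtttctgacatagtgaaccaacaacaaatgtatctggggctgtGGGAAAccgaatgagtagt
Cel: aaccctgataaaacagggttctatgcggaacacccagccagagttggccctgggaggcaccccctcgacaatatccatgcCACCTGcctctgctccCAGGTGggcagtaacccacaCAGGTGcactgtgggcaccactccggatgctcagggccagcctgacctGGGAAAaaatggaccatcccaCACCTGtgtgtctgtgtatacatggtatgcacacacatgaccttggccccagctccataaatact
Ctrb1: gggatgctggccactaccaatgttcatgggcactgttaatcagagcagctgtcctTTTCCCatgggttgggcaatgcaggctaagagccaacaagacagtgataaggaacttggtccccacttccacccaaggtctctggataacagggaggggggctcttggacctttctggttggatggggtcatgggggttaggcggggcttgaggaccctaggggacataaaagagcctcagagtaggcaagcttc
Cela1: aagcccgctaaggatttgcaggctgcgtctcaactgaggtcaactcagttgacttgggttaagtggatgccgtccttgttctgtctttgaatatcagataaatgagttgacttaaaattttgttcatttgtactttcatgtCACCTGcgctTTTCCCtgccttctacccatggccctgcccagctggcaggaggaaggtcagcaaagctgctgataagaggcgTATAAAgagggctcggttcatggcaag
TTTCCC was found in all 5 windows, 2 times in Prss2 and 1 time in each other gene. CACCTG was found 4 times in Cel, 1 time in Prss2 and 1 time in Cela1. TATAAA was found in Prss2 and Cela1. Among 32851 RefSeq promoter windows of the same length, 21.9% held TTTCCC, 17.2% held CACCTG, 12.4% held TATAAA and 3.61% held both CACCTG and TTTCCC. These are matches of letters only.

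Deposited values were log2 probe set levels. The lowest value of the spleen table was 2.16 at 6 h and 2.19 at 12 h, and 20.5 to 23.2% of the values of an array lay at that floor. Array medians ran from 4.52 to 4.94. The spleen label was checked against marker lists, and B cell markers had a mean level of 9.99 to 10.69 and T cell markers of 9.91 to 10.68 over all spleen arrays. Red pulp macrophage markers had a mean level of 9.58 to 10.67. These lists were not compared with the lymph nodes, so the label was not tested against them. Albumin (Alb) was above 8 in 2 spleen arrays, combination 85 at 6 h and naive 47 at 12 h, both with Prss2 below 6. Fabp2, an enterocyte fatty acid binding protein, was above 8 in vehicle 54 at 6 h, which had Prss2 above 6, and in DMF 100 array 10 at 12 h, which did not.

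Prss2 was either near the floor or high in nearly all spleen arrays. At 6 h it was above 6 in 8 of 34 arrays. Vehicle arrays 52, 54, 56 and 57 read 11.35, 12.07, 11.71 and 11.42. DMF 100 arrays 61 and 65 read 12.16 and 11.20. MEF array 82 read 12.20 and combination array 84 read 9.67. Values in between were rare. The highest array below the threshold was vehicle 58 at 4.04 and the next stood at 2.28. All 7 DMF 179.2 arrays at 6 h lay between 2.16 and 2.18.

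At 12 h Prss2 was above 6 in 9 of 38 arrays. DMF 100 arrays 12, 14, 15 and 16 read 10.49, 12.00, 9.92 and 6.59. DMF 179.2 arrays 17 and 19 read 9.50 and 11.61. MEF arrays 27 and 32 read 11.21 and 6.81, and combination array 34 read 10.50. The highest of the other arrays was 2.40. All 7 vehicle and all 3 naive arrays stood at 2.26.

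The groups that held such arrays therefore differed between times. Vehicle had 4 of 8 arrays above 6 at 6 h and 0 of 7 at 12 h, DMF 100 had 2 of 7 and 4 of 8, and DMF 179.2 had 0 of 7 and 2 of 8. MEF had 1 of 8 and 2 of 8, the combination 1 of 4 at each time, and naive 0 of 3. Fisher's exact test, 2-sided, of array number by treatment gave p = 0.214 at 6 h and p = 0.343 at 12 h, both 0.857 after adjustment over 5 tests. By the place of the animal number in runs of 12, the same exact test gave p = 1 and p = 0.573. At these group sizes neither test passed the threshold, which does not show that the groups were alike.

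**Figure D1:**
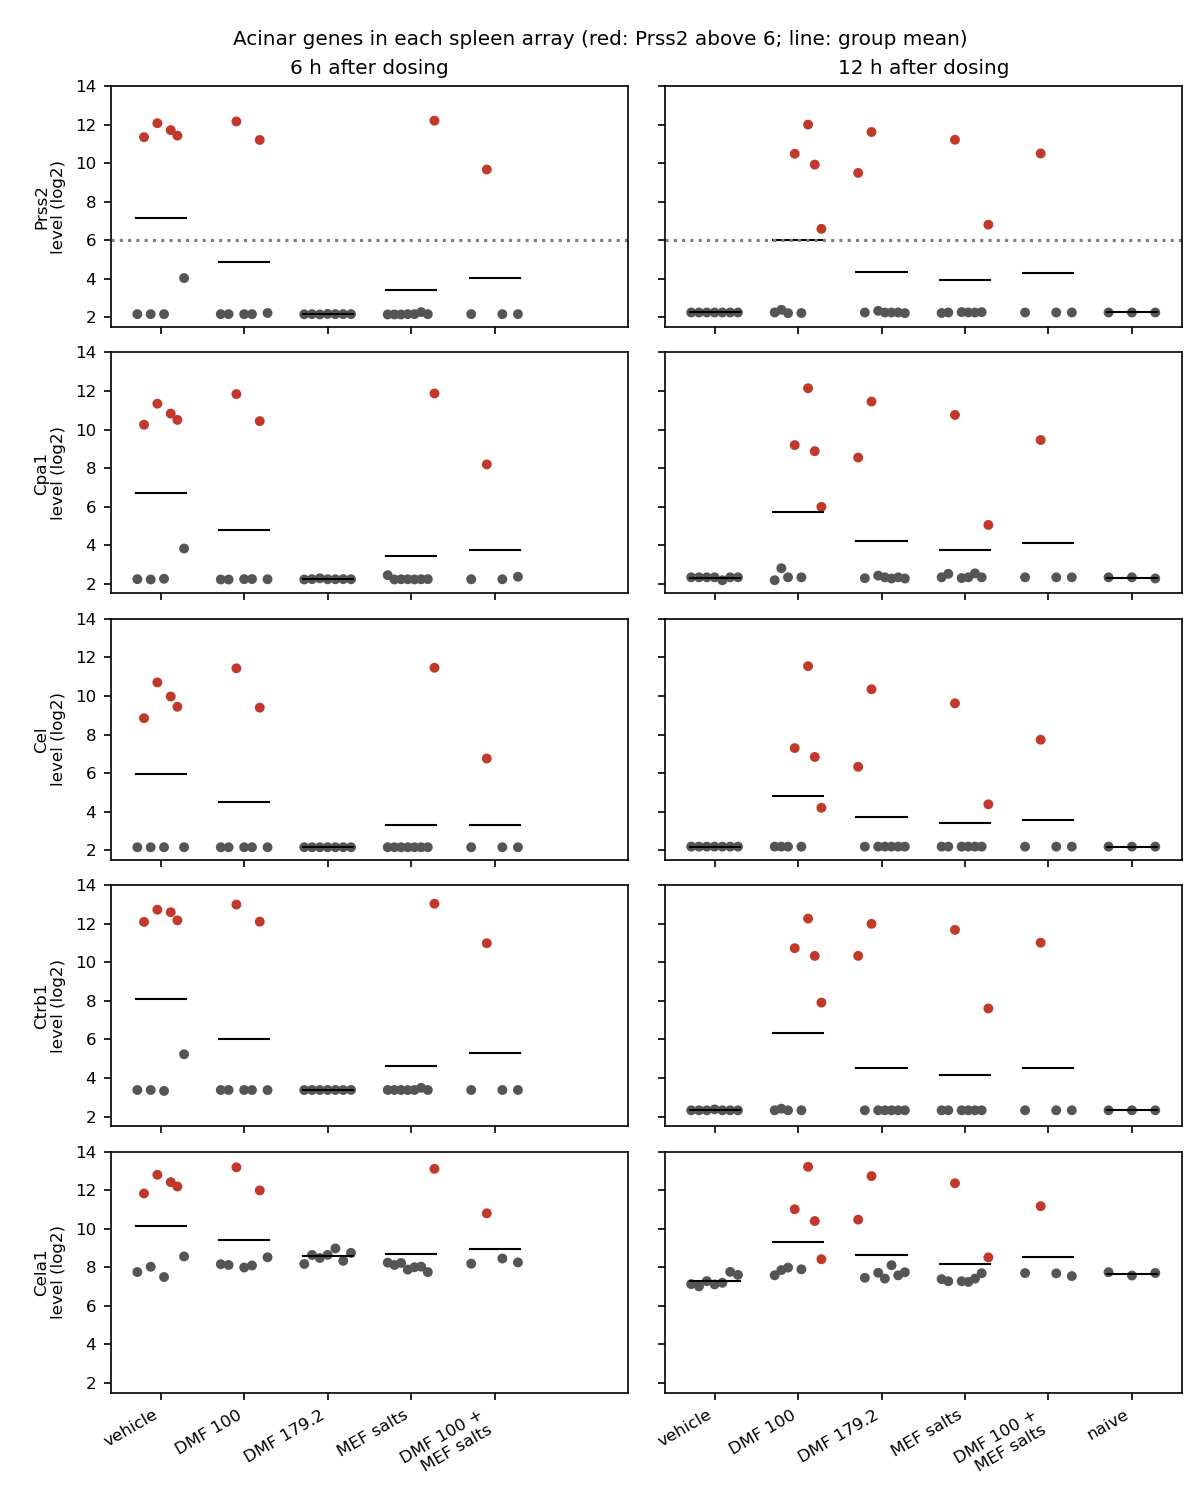
Level (log2) of the 5 measured acinar genes in each spleen array, by treatment, at 6 h (left) and 12 h (right). Each point is 1 array, red where Prss2 is above 6, the horizontal line is the group mean and the dotted line is the threshold. At 12 h all vehicle and naive arrays sit at 2.26 for Prss2, and at 6 h 4 of 8 vehicle arrays sit above 11.

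The other proteases followed. Ctrb1 was 3.33 to 5.23 in the 26 other arrays at 6 h (median 3.38), and 10.99, 12.39 and 13.04 were its lowest, median and highest values in the 8 arrays above the threshold. At 12 h the other arrays lay at 2.33 to 2.41, and those above at 7.61, 10.73 and 12.27. The mean difference was 8.89 log2 at 6 h and 8.10 at 12 h. Cela1 was present in every spleen array. In the other arrays it was 7.50 to 8.98 at 6 h and 7.01 to 8.11 at 12 h, against 10.80, 12.30 and 13.18 and 8.42, 11.01 and 13.21 (lowest, median, highest) in those above. Its difference was therefore smaller than that of the other 4 genes, at 4.06 and 3.38 log2. No array above the threshold overlapped with the others of its time for either gene.

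Cpa1 and Cel, a peptidase and a lipase, stood at or near the floor in most other arrays. Cpa1 was 2.23 to 3.83 at 6 h and 2.19 to 2.81 at 12 h in them. In those above it was 8.19, 10.66 and 11.87 at 6 h and 5.05, 9.19 and 12.14 at 12 h, a mean difference of 8.34 and 6.70 log2. Cel was exactly at the floor in all 55 other arrays. Its lowest, median and highest values above the threshold were 6.76, 9.71 and 11.46 at 6 h and 4.20, 7.30 and 11.55 at 12 h, a mean difference of at least 7.59 and 5.40 log2. A difference from arrays at the floor, here and for the genes below that lay there, is a lower bound. Cpa1, Cel, Ctrb1 and Cela1 were thus higher in each array above 6 than in each other array of the same time. Prss2 was so by the division itself. Over all genes, 17 of 17097 (0.0994%) were so at both times, Prss2 included.

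The 17 arrays differed widely among themselves. Prss2 spanned 5.61 log2 across them, Cel 7.35, Cpa1 7.09, Ctrb1 5.43 and Cela1 4.79. The 2 lowest, DMF 100 array 16 and MEF array 32 at 12 h, had Prss2 at 6.59 and 6.81, Cel at 4.20 and 4.38 and Cela1 at 8.42 and 8.51. The 4 highest had Prss2 at 12.00 to 12.20, Cel at 10.70 to 11.55 and Cela1 at 12.80 to 13.21. Genes with a low level, such as Cel, came closer to the floor in the lowest arrays than Ctrb1, which was still at 7.61 to 7.91.

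**Figure D2:**
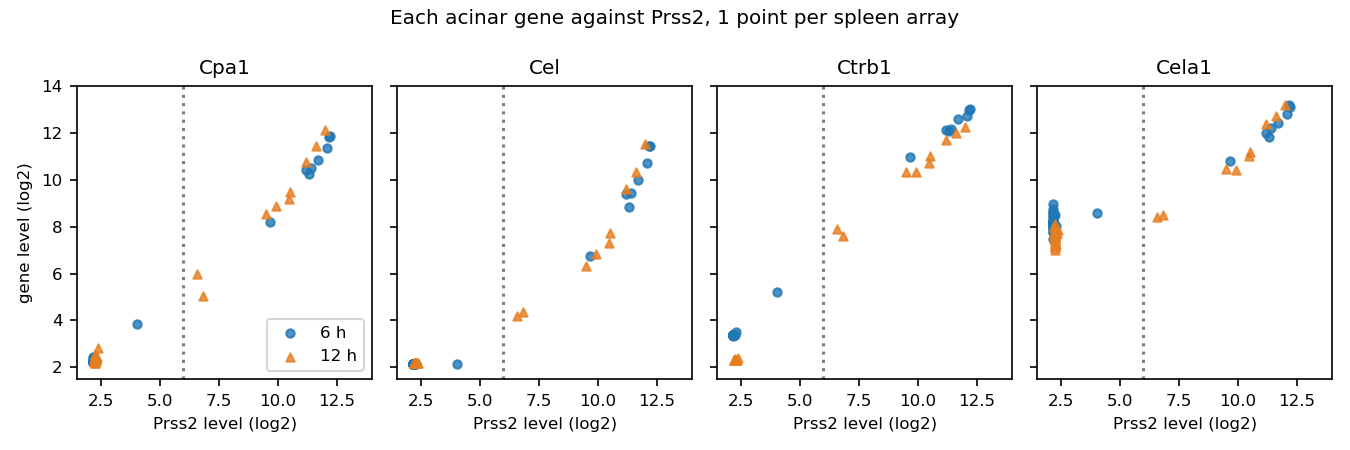
Level (log2) of Cpa1, Cel, Ctrb1 and Cela1 against that of Prss2 (log2), 1 point per spleen array, circles for 6 h and triangles for 12 h, dotted line at the threshold of 6. Cel stays at the floor in all arrays below the threshold, and Cela1 starts from 7.01 to 8.98 in them.

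Across all genes, 37 of 17097 (0.216%) were at least 1 log2 higher in the arrays above the threshold at 6 h and 31 (0.181%) at 12 h. All 31 of the second set were in the first. Of the 31, 26 belonged to 7 lists of acinar enzymes, granule proteins and Reg genes, which had 34 measured genes, and the 5 measured members were among them. In the opposite direction 1 gene at 6 h and 0 at 12 h were at least 1 log2 lower, with no test run. In 17 genes (0.0994%) every array above 6 was higher than every other array at both times, and 16 of these were in the lists. Prss2, which divided the arrays, is counted among the 31, the 26, the 17 and the 16. The lists were drawn up for the pancreas with earlier results of these arrays known.

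Of the 5 measured trypsin and inhibitor genes, 5 at 6 h and 4 at 12 h were at least 1 log2 higher, Prss2 itself among them. Try5, another trypsinogen, was higher by 9.79 and 8.30 log2. Spink1, the trypsin inhibitor stored with the enzymes, was higher by 5.95 and 3.53. Prss1 was higher by 1.38 and 0.98 and Prss3 by 1.60 and 1.10. Trypsinogens are near-identical copies, so their probe sets may share signal. All 5 measured chymotrypsin and elastase genes followed, with Cela3b at 8.95 and 8.002, Cela2a at 7.55 and 5.91 and Ctrl at 5.94 and 5.09.

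The carboxypeptidase Cpb1 was higher by 9.11 and 7.21 log2. All 5 measured lipase genes followed, from Pnliprp1 at 8.08 and 6.21 to Pnliprp2 at 4.76 and 3.66. Clps, the colipase that anchors pancreatic lipase, was higher by 7.04 and 5.17 and Pla2g1b, a secreted phospholipase, by 5.31 and 3.61. Amy2a5, pancreatic amylase, was higher by 9.42 and 9.30 and the ribonuclease Rnase1 by 8.85 and 7.12, while Amy1, a close copy, was higher by 1.32 and 0.72. Amy2a5 was still at 9.21 to 9.58 in the 2 arrays with Prss2 below 7.

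Among granule proteins, Sycn (syncollin) was higher by 7.48 and 5.98 log2, Dmbt1 by 6.39 and 4.10, and Gp2, the main granule membrane glycoprotein, by 4.67 and 3.05. Klk1 and Rap1gap of that list differed by -0.18 and 0.02 at 6 h and by -0.07 and 0.17 at 12 h. In the Reg family, Reg1 was higher by 8.14 and 6.14, Reg2 by 2.44 and 1.44 and Reg3d by 1.96 and 1.02. Reg3a, Reg3b and Reg3g differed by 0.13 to 0.81 at 6 h and by -0.27 to 0.00 at 12 h. Ranked by the share of array pairs in which the gene was higher above the threshold, then by a difference that is a lower bound for genes at the floor, the 10 genes most like Prss2 over the 72 arrays were Amy2a5, Try5, Ctrb1, Cela3b, Cpb1, Rnase1, Cpa1, Pnliprp1, Reg1 and Sycn.

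**Figure D3:**
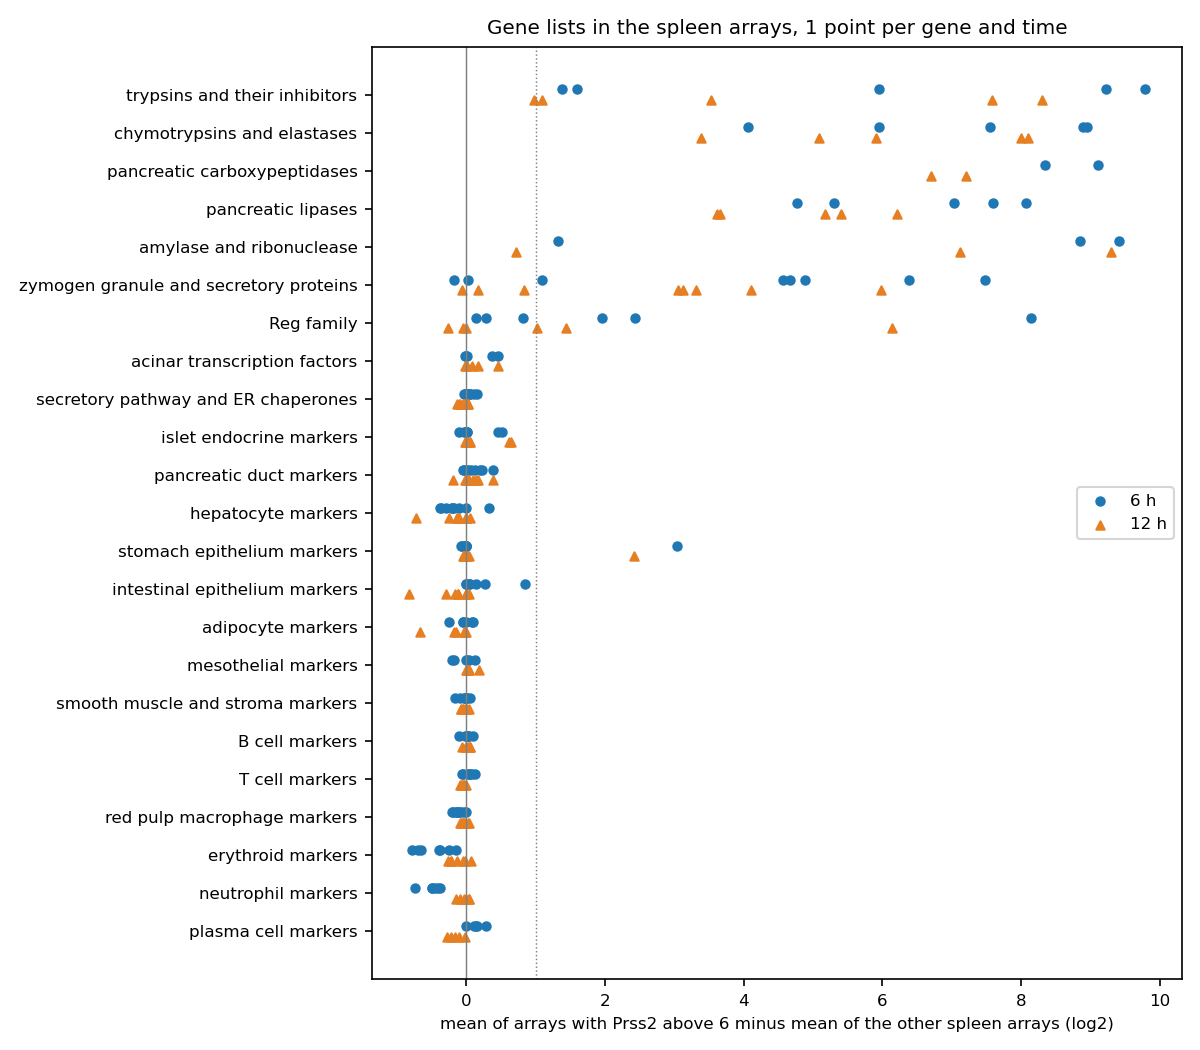
Difference (log2) between the mean of spleen arrays with Prss2 above 6 and the mean of the other spleen arrays, 1 point per measured gene, circles for 6 h and triangles for 12 h, by gene list. The upper 7 lists hold the 26 genes past the dotted line at 1 log2 at both times, and below them only Tff2 of the stomach list is past it.

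Other genes of the acinar cell did not follow at that size in the mean. Of 5 acinar transcription factors none reached 1 log2 in the mean. Rbpjl, a subunit of the PTF1 complex, was higher by 0.45 at both times, Ptf1a by 0.00 and 0.16, and Nr5a2 by 0.00 at both. In the 4 arrays with the highest Prss2, Rbpjl ran from 3.53 to 6.44 and Ptf1a from 2.16 to 3.36. The highest values of the other arrays were 3.85 at 6 h and 3.42 at 12 h for Rbpjl, and 2.72 and 2.25 for Ptf1a. The 12 measured secretory pathway and chaperone genes differed by -0.04 to 0.15 at 6 h and by -0.14 to 0.02 at 12 h. Their mean level was 9.27 to 9.99 over all spleen arrays.

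Outside the lists the 10 genes ranked highest began with Serpini2, a pancreatic serine protease inhibitor, at 3.18 and 1.83 log2. Klk1b9, a kallikrein with near-identical copies, was higher by 1.90 and 1.59, and Cckar, the receptor by which cholecystokinin drives enzyme release, by 2.20 and 1.29. The other 7 were Tmed6, Tmed11, Cabp2, Hsd17b13, Hamp2, Klk1b5 and Nupr1, at 0.53 to 0.94 log2 on the smaller of their 2 differences. Cckar was at the floor in all other arrays. The 5 lowest were Aoah, Cdk5rap1, Dmtn, Tmcc2 and Isg20, at -0.27 to -0.38 by the same measure.

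Markers of other cells of the pancreas were mostly level. Of 10 measured islet markers none reached 1 log2 in the mean. Ins2 (insulin) differed by 0.51 and 0.65 and Gcg (glucagon) by 0.46 and 0.62. In the 4 arrays with the highest Prss2, Ins2 ran from 3.47 to 6.54 and Gcg from 2.71 to 6.16, and in the 2 lowest Ins2 was 2.88 to 2.90. Of 9 duct markers the largest difference was that of Krt18, at 0.38 at both times.

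Markers of organs that lie nearby did not move one way. Of 9 hepatocyte and 8 intestinal markers none reached 1 log2 in the plain difference. Fabp2 differed by 0.85 at 6 h and -0.83 at 12 h, and Apoa1, an apolipoprotein of liver and gut, by 0.32 and -0.72. Within treatment groups at 12 h these 2 differed by -1.73 and -1.22. DMF 100 array 10, one of the other arrays at 12 h, had Fabp2 at 11.78 and Apoa1 at 11.47. Of 9 stomach markers only Tff2, a trefoil peptide, did, at 3.04 and 2.42 log2, while Gkn1, Gkn2, Pgc and Atp4a differed by -0.03 to 0.00. B cell markers differed by -0.10 to 0.09 at 6 h and -0.07 to 0.06 at 12 h, and T cell markers by -0.07 to 0.13 and -0.09 to 0.00. Erythroid markers differed by a median of -0.40 at 6 h, or -0.13 within treatment groups, and of -0.14 at 12 h, with Klf1 at -0.79 at 6 h. Neutrophil markers differed by a median of -0.47 at 6 h, or -0.38 within groups, and of -0.02 at 12 h, with Mpo at -0.74 at 6 h. In these bulk samples fewer cells of a type and less RNA per cell cannot be told apart. The part of these lists in the acinar values was not tested.

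Single arrays were also described by 26 list genes. These were picked because they were higher above the threshold at both times, so high counts in those arrays follow from the choice, and the counts show only how arrays of one side differ. Each array was compared with the median of the other arrays. In arrays above the threshold 23 to 26 of them were at least 1 log2 above that median at 6 h and 15 to 26 at 12 h. Among the others, 24 of 26 arrays at 6 h and 27 of 29 at 12 h had 0. Vehicle 58 at 6 h had 8, with Amy2a5 at 7.52, Cela3b at 6.18 and Ctrb1 at 5.23. DMF 100 array 10 at 12 h had 7, with Amy2a5 at 5.28 and Spink1 at 8.58. That array also had Fabp2 at 11.78 and Reg3b at 10.42, and the part of intestinal RNA in its count was not tested.

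**Figure D4:**
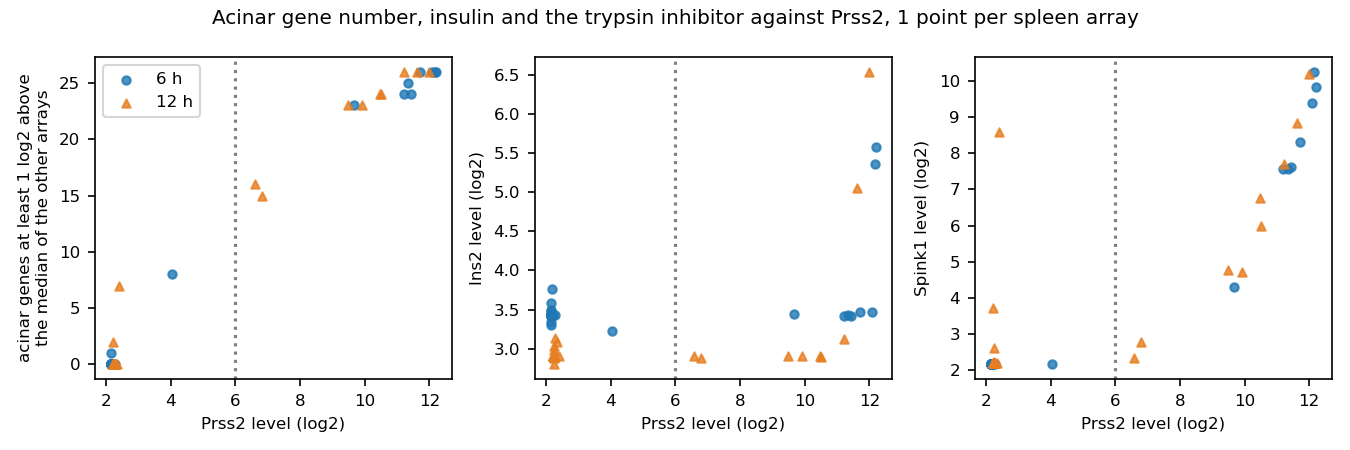
Number of the 26 acinar genes at least 1 log2 above the median of the other arrays (left), Ins2 level (log2, middle) and Spink1 level (log2, right) against Prss2 level (log2), 1 point per spleen array, circles for 6 h and triangles for 12 h. The 2 arrays with Prss2 between 6 and 7 had 15 and 16 genes raised, and Ins2 is high in some of the arrays with the highest Prss2.

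The treatment contrasts asked whether the members changed with dosing. With all arrays, 2 of 5 measured members were called lower with DMF 179.2 at 6 h and none was called in any of the other 8 contrasts. Vehicle Prss2 was 2.17, 7.70 and 12.07 (lowest, median, highest of 8), and DMF 179.2 was 2.16, 2.17 and 2.18 (of 7). Of the 8 vehicle arrays 4 were above 6, so the difference reflects how many arrays were above and not an even shift. Fisher's exact test of those numbers over all groups at 6 h gave p = 0.214 (0.857 adjusted). Prss2 was lower by -4.97 log2 (SE 1.85), and limma's test gave an adjusted p of 0.0421. Cpa1 was lower by -4.44 (SE 1.69, limma adjusted p = 0.0472). Ctrb1, Cel and Cela1 differed by -4.74, -3.79 and -1.56, with limma adjusted p of 0.0562, 0.0615 and 0.226. In this contrast 6.4% of all genes were called lower, 16.6% higher and 23% in either direction. A fit of only the groups compared gave adjusted p of 0.0771 for Prss2 and 0.0787 for Cpa1.

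Of 34 measured acinar list genes in the same contrast, 5 were called lower (Prss2, Cpa1, Try5, Cela3b and Amy2a5) and 2 higher (Klk1 and Rap1gap). That share, 20.6%, is close to the 23% of all genes. The median difference was -2.81 against 0.01 for all genes. Without the 17 arrays the median difference of the list was -0.01, and without vehicle 58 as well it was 0.00. The arrays were removed for their Prss2 level, so these 2 medians are given with no test. At 12 h the medians of the 34 genes were 2.43 for DMF 100, 1.26 for DMF 179.2, 0.81 for MEF and 1.05 for the combination. Their only call in these 4 contrasts was Klk1, higher with MEF. Contrasts of a time share the vehicle arrays.

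At 12 h the vehicle group held no array above the threshold. DMF 100 differed from it by 3.76 (SE 1.85) in Prss2, 3.995 in Ctrb1, 3.42 in Cpa1, 2.64 in Cel and 1.99 in Cela1. None was called, with limma adjusted p of 0.771 to 0.839. In that contrast 0.0175% of genes were called. The change of the DMF 179.2 effect from 6 h to 12 h was 7.05 (SE 2.61) for Prss2, with a limma adjusted p of 0.0961 over all genes. For DMF 100, MEF and the combination the same change was 6.00, 5.40 and 5.15, with limma adjusted p of 0.802, 0.902 and 0.729. All of these share the vehicle arrays, of which 4 of 8 were above 6 at 6 h and 0 of 7 at 12 h. A change particular to 1 treatment is therefore not shown.

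With the 17 arrays left out, the differences of 4 members were small. The arrays were removed for their Prss2 level, which took 4 of 8 vehicle and 0 of 7 DMF 179.2 arrays at 6 h, so the members' values without them are given as a description with no test. For DMF 179.2 at 6 h Prss2 differed by -0.47, Ctrb1 by -0.45, Cpa1 by -0.40 and Cel by 0.00. These values rested on vehicle 58. Without it as well, Prss2 differed by 0.00 and Ctrb1 by 0.02.

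The difference of Cela1 changed sign. It is the member with a level of its own in spleen, and in the arrays below the threshold at 6 h it was 7.96 ± 0.46 (SD, n = 4) in vehicle and 8.57 ± 0.27 (SD, n = 7) in DMF 179.2. The 2 groups overlapped, at 7.50 to 8.56 and 8.17 to 8.98. With all arrays it differed by -1.56, and without the 17 arrays by 0.61. Without vehicle 58 as well the difference was 0.81. At 12 h, without the 17 arrays, it differed by 0.53 for DMF 100 and 0.37 for DMF 179.2. Cela1 itself was higher in the arrays removed, so these values too carry no test. Vehicle 58, with Prss2 at 4.04, had the highest Cela1 of the 4 vehicle arrays, 8.56.

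**Figure D5:**
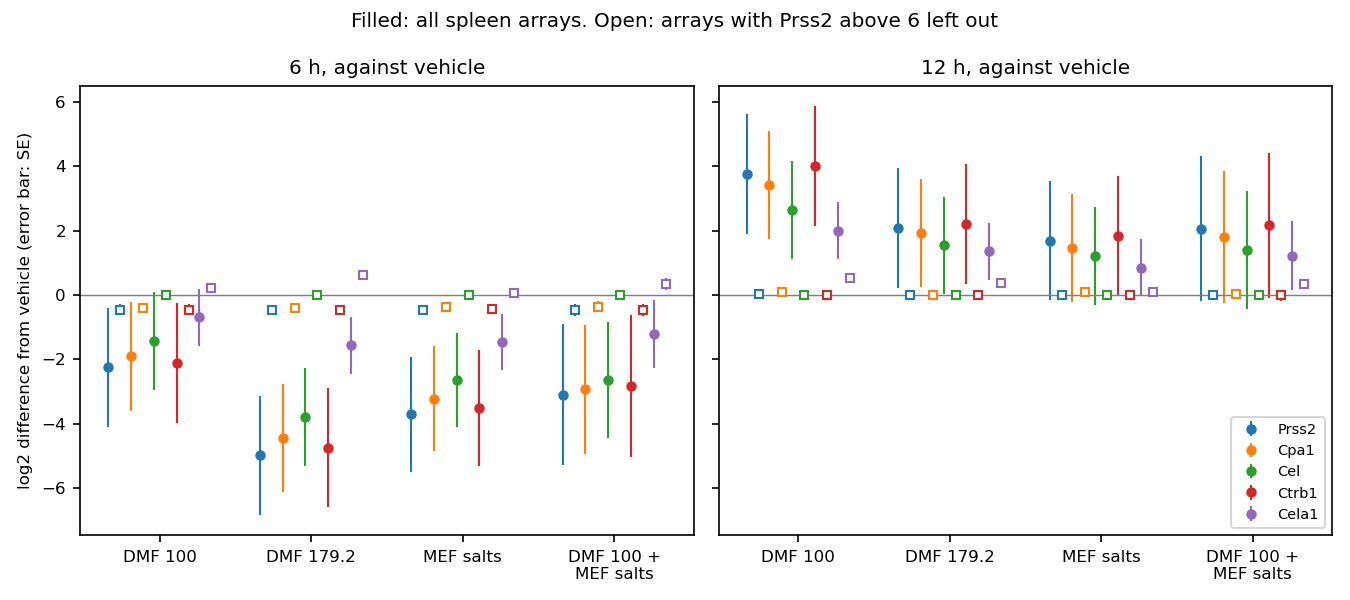
Difference from vehicle (log2, error bar SE) of the 5 measured members for each treatment at 6 h (left) and 12 h (right), filled circles with all spleen arrays and open squares with the arrays of Prss2 above 6 left out. Filled values are negative at 6 h and positive at 12 h, and the open values of Cela1 for DMF 179.2 at 6 h stand at 0.61.

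The number of genes called in whole contrasts also moved when these arrays were left out, though fewer arrays then remained. At 6 h calls went from 598 (3.5%) to 9 (0.0526%) for MEF, with 5 shared, and from 681 (3.98%) to 24 (0.14%) for the combination, with 22 shared. For DMF 179.2 they went from 3927 to 2139 (12.5%), with 2073 shared. For DMF 100 they went from 25 (0.146%) to 10 (0.0585%), with 9 shared. At 12 h they went from 158 (0.924%) to 30 (0.175%) for MEF and from 574 (3.36%) to 173 (1.01%) for the combination. For DMF 179.2 they went from 81 (0.474%) to 57 (0.333%), and for DMF 100 from 3 to 5 (0.0292%). No array was left out of the vehicle and naive groups at 12 h, and calls between them went from 3130 (18.3%) to 2765 (16.2%). How much of each loss comes from fewer arrays was not tested.

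Other organs of the same mice mostly lacked Prss2. Of the other 6 organs 1 array was above 6, a mesenteric lymph node of MEF animal 25 at 12 h, with Prss2 at 10.08, Cpa1 at 8.93, Cel at 7.88, Ctrb1 at 11.05 and Cela1 at 11.57. The spleen of that animal had Prss2 at 2.23. The next were mesenteric lymph nodes of DMF 179.2 animal 67 and DMF 100 animal 60 at 6 h, at 5.62 and 4.55. Animals with a spleen array above 6 had lymph node Prss2 of 2.14 at 6 h and 2.46 to 2.80 at 12 h. Of the 38 animals with both organs at 12 h, 9 had a spleen array above 6, 1 had a lymph node array above 6 and 0 had both. Fisher's exact test of the pair was among the 5 tests adjusted over. With 1 lymph node array above 6 it could not decide whether the organs go together. Organs were normalized apart, so levels are not compared between them.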

How the data were processed

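Total RNA of 72 spleens, and of 6 other organs, was measured on Affymetrix arrays, 1 array per animal and organ. The deposited values are log2 probe set levels, and the submitters' processing notes list limma 3.4.5, RMA, GCRMA and R 2.11.1 without saying what each did. Times share no floor, so they were taken as normalized apart. All sample columns were used. The number of arrays limits the precision, and animals were the replicates.

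Of 45141 probe sets, 104 were controls, 28898 named 1 gene, 551 several and 15588 none. The platform annotation gave the gene of each probe set, and 28689 probe sets took the RefSeq symbol of that gene. The others kept the platform's symbol. For each of 17097 genes the probe set with the highest spleen mean was kept.

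Samples were grouped by title. Under R 4.3.3, limma 3.58.1 fitted 1 mean for each of 11 spleen groups to tables read by data.table (version 1.17.8). P values of 9 contrasts were 2-sided and Benjamini-Hochberg adjusted over all genes within a contrast, called below 0.05. The fit was tested on simulated data. Fisher's exact test compared array counts. Tables were made with pandas 2.3.3 and numpy 2.4.6 under Python 3.11.15, and plots with matplotlib 3.10.9.

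Named genes were the members, list genes, the 10 highest and 5 lowest other genes by the smaller of the 6 h and 12 h differences, and the 10 most like Prss2. Predicted and sex-linked genes were counted, not named. The members and lists were chosen with earlier results of these data known. Alternatives were other Prss2 thresholds, the mean of members, difference of medians, further quantile normalization, dim genes left out, trend and robust variance, only the groups compared, the mean of all probe sets, leaving out single arrays in groups of up to 5, and the arrays above 6 left out. Chosen after seeing the data were the place of the animal number in runs of 12 as a covariate, with and without those arrays, leaving out vehicle 58 too, and differences within treatment groups.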

Additional observations from a re-analysis of the deposited data

Results flagged for a closer look

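In groups of 4 to 10 spleen arrays, the gap of the highest or lowest array was set against the range of its group, for 47 combinations of gene and group. In 21 of them 1 array stood apart. Prss2 itself divided the arrays, genes that share arrays are not independent and many values lie at the floor. The number is therefore a description, with no rate from chance set beside it. In 18 the range was 1 log2 or more, and these came from 4 arrays, all with Prss2 above 6.

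Combination array 84 at 6 h was the highest of 4, with Prss2 at 9.67, Cpa1 at 8.19, Cel at 6.76, Ctrb1 at 10.99 and Cela1 at 10.80. MEF array 82 at 6 h was the highest of 8, with Prss2 at 12.20, Cpa1 at 11.87, Cel at 11.46, Ctrb1 at 13.04 and Cela1 at 13.10. Combination array 34 at 12 h was the highest of 4, with 10.50, 9.46, 7.73, 11.02 and 11.17 for the same genes in that order. MEF array 27 at 12 h was the highest of 8, with Cpa1 at 10.76, Cel at 9.62 and Cela1 at 12.36.

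The remaining 3 had a range below 1 log2. These were Cpa1 at 2.29 in DMF 179.2 array 69 at 6 h, Cpa1 at 2.19 in vehicle array 5 at 12 h and Ctrb1 at 2.38 in vehicle array 4 at 12 h.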

How the results depend on the processing

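The number of arrays above the threshold was 8 at 6 h and 9 at 12 h with Prss2 above 5 or the mean of members above 6, and 8 and 7 with Prss2 above 7. Genes at least 1 log2 higher at both times numbered 26 to 35 over the alternatives. Counts of called genes moved more. With the arrays above 6 left out they were 10, 2139, 9 and 24 at 6 h for DMF 100, DMF 179.2, MEF and the combination, and 5, 30 and 173 at 12 h for DMF 100, MEF and the combination. With vehicle 58 out as well they were 14, 2320, 8 and 52 at 6 h and 5, 48, 13 and 147 at 12 h. With the place covariate they were 11, 2195, 909 and 80 at 6 h, and 31, 391 and 226 at 12 h for DMF 179.2, MEF and the combination. With both the covariate and the arrays left out they were 9, 581, 12 and 4 at 6 h and 48, 8, 49 and 14 at 12 h. A fit of only the groups compared gave 0 for DMF 100 and 98 for the combination at 6 h, 0, 5, 52 and 188 at 12 h, and 1079 for vehicle against naive. Leaving out dim genes gave 45 for DMF 100 at 6 h, and 1 for DMF 100 and 280 for MEF at 12 h. The mean of all probe sets gave 38 for DMF 100 at 6 h and 79 for MEF at 12 h. Leaving out single arrays gave 396 to 721 for the combination at 6 h, 247 to 482 at 12 h and 1356 to 3233 for vehicle against naive. The cause was not tested.

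Of 424 member values under alternatives, 382 kept direction and side of the threshold, 8 lost the call, 2 gained it and 32 changed sign. The tally includes fits without the arrays above 6, where a call of a member gained or lost is not a test. Cela1 at 6 h changed sign with the arrays above 6 left out, with the covariate as well, and with vehicle 58 out as well. Its values in that order were 0.22, 0.20 and 0.42 for DMF 100, 0.61, 0.59 and 0.81 for DMF 179.2, 0.077, 0.0783 and 0.28 for MEF, and 0.34, 0.31 and 0.54 for the combination. With vehicle 58 out as well, Prss2 was 0.0117 for DMF 100 and 0.00791 for MEF, Cpa1 was 0.0212 for MEF and 0.0378 for the combination, and Ctrb1 was 0.0144, 0.0159, 0.0310 and 0.0159 for the 4 treatments. At 12 h Ctrb1 was -0.00664 for DMF 179.2, MEF and the combination without the arrays above 6, whether vehicle 58 was in or out, and -0.0128, -0.00683 and -0.0144 with the covariate as well. It ran from -0.00664 (without array 34) to 2.89 when single combination arrays were left out. Prss2 was -0.0121 for the combination with the covariate and those arrays out. Ctrb1 was -1.20 between vehicle and naive with the covariate. The sign changes other than the last and those of Cela1 were within 0.04 of 0, where values lie near the floor. No paired analysis was possible because the spleen groups compared share no animal number. The number of arrays, and signal near the floor in 4 of 5 members, limit what can be seen.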
